A study of Mus musculus with 24 samples.

Results

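Inguinal fat of WSB/EiJ mice was set against inguinal fat of C57BL/6J mice, both fed the standard diet, in which fat gave 17% of the energy. The members are the 6 libraries whose labels give that diet and either strain, 3 of WSB/EiJ and 3 of C57BL/6J, out of 24 in the series, each from the subcutaneous inguinal pad of 1 female aged 26 weeks. WSB/EiJ is an inbred strain derived from wild house mice and known to stay lean, and C57BL/6J is the common reference strain, which gains fat readily. The 3 CAST/EiJ and 3 NZO/HiLtJ libraries of the same diet entered the fit to help estimate the spread between mice. Some of these held transcripts of other tissues: CAST/EiJ replicate 2 had skeletal muscle genes at 6188 CPM and liver genes at 765 CPM (levels as summed CPM, counts scaled to the library total), and NZO/HiLtJ liver genes reached 1430 CPM. The 3 WSB/EiJ and 3 C57BL/6J libraries of a diet with 45% of energy from fat and 34% sucrose by weight served as a second set of mice. A strain differs from another at many loci at once, so a difference between these groups cannot be assigned to single loci. The library names also carry a different prefix for each strain, whose meaning is not given. Strain and anything else that differed between the groups of mice therefore cannot be told apart.

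White fat stores energy as triglyceride in adipocytes. Adipocytes take fatty acids from the blood through lipoprotein lipase, or make them from glucose: citrate leaves the mitochondrion, ATP citrate lyase turns it into acetyl-CoA, acetyl-CoA carboxylase and fatty acid synthase build palmitate, and elongases and desaturases finish the chain. In an expanding pad, adipocytes secrete leptin, macrophages gather and collagen is laid down around the cells.

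The 6 libraries held 69631549, 68056878 and 77789202 counts in WSB/EiJ, against 72069713, 73047801 and 69721087 counts in C57BL/6J. The 10 most abundant genes took 11.2% to 13% of the counts in WSB/EiJ and 7.9% to 9.07% in C57BL/6J. Adipocyte markers were abundant in all 6: the 10 genes of that list summed to 34103, 35528 and 28523 CPM (counts scaled to the library total) in WSB/EiJ and to 31327, 30035 and 31795 CPM in C57BL/6J. Lymphocyte genes, which mark the lymph node in the inguinal pad, summed to 16.9 to 17.8 CPM in WSB/EiJ and 12.2 to 19.8 CPM in C57BL/6J. Smooth muscle genes varied within both groups, from 152 to 1018 CPM in WSB/EiJ and from 379 to 1042 CPM in C57BL/6J. Epithelial Epcam stood at 5.67 CPM in WSB/EiJ replicate 3, while the other 5 libraries had 0.22 to 0.459 CPM. Liver genes summed to 18.2 to 45.1 CPM in WSB/EiJ and 87.1 to 114 CPM in C57BL/6J. The strains did not overlap at 7 of the 8 genes, against 54.6% of all genes tested. None of the 8 passed the test, and 7 were lower when only the 6 compared libraries were fitted. Mesothelial genes, which mark the lining of the abdominal cavity, summed to 113 to 149 CPM in WSB/EiJ and 240 to 268 CPM in C57BL/6J, although the tissue is labelled subcutaneous, and Tbx15, a gene of subcutaneous fat, was too low to be tested.

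Transcript levels differed between the strains at a large share of genes. Of 19038 genes tested by edgeR's quasi-likelihood test, 8510 passed an adjusted p of 0.05, which is 44.7%. In WSB/EiJ 3986 of them were higher (20.9% of those tested) and 4524 were lower (23.8%). The gene list counts from this fit, given below, are to be read beside these shares. Of the higher genes 1265 differed at least 2-fold, 451 at least 4-fold and 152 at least 16-fold. Of the lower genes 1806, 630 and 161 did. At 54.6% of the genes tested, called or not, the 3 WSB/EiJ libraries did not overlap the 3 C57BL/6J libraries. The split between higher and lower depended on the scaling: 46.8% of the calls were higher with trimmed-mean scaling, and 23.4% (2283 higher, 7468 lower) with library totals alone, under which the median of all genes moved to -0.28 from -0.03 (log2). Differences no larger than that shift therefore have no firm direction. The fit of all 24 libraries called 22% of 20035 genes, 2024 higher and 2391 lower. List counts given below for library totals or for that fit are to be read beside the counts of all genes in the same setting.

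**Figure D1:**
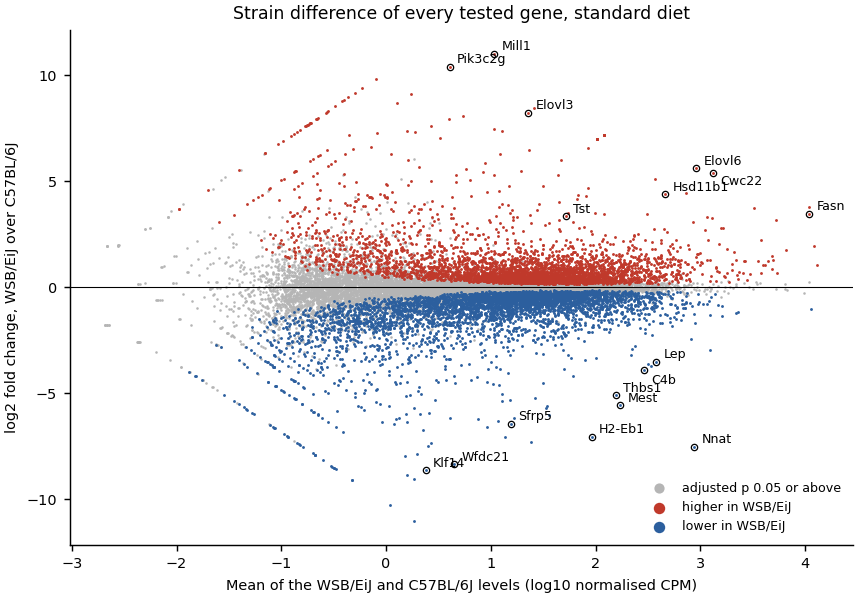
Each point is 1 tested gene, with the mean of the strain means in normalised CPM (log10) on the x axis and the log2 fold change of WSB/EiJ over C57BL/6J on the y axis, red where higher and blue where lower at an adjusted p under 0.05. Fasn stands far right at 3.47, Nnat near the bottom right at -7.52, and circles mark genes named in the text.

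Among the 15 named genes with the highest fold changes, several had almost no counts in C57BL/6J. Levels of single genes are given from here on as normalised CPM, that is CPM after the trimmed-mean scaling. Summed levels of marker lists stay scaled to the library total. Mill1, which encodes an MHC class I-like protein, had 22.8, 17.2 and 24.9 CPM in WSB/EiJ, against 0, 0 and 0.0269 CPM in C57BL/6J. That is 4296 counts against 2, a ratio of 2539 with a 95% counting interval of 702 to 20973. Pik3c2g, a class II phosphoinositide 3-kinase, had 7.99, 12 and 4.41 CPM in WSB/EiJ and 0, 0.0126 and 0 CPM in C57BL/6J, 1538 counts against 1, a ratio of 1818 with a counting interval of 326 to 71857. Both groups were far apart at these 2 genes, with adjusted p-values of 1.62e-07 and 1.2e-05.

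Gchfr, whose product holds back GTP cyclohydrolase, the first enzyme of tetrahydrobiopterin synthesis, had 26.4, 18.8 and 19.1 CPM in WSB/EiJ, against 0.116, 0.0879 and 0.161 CPM in C57BL/6J. Its log2 fold change was 7.45 ± 0.41 (approximate SE derived from the test, adjusted p = 3.9e-07). Slc2a5, a fructose transporter, had 125, 60.8 and 68 CPM in WSB/EiJ and 0.888, 1.77 and 3.8 CPM in C57BL/6J. The lowest WSB/EiJ library was well above the highest C57BL/6J library, and the log2 fold change was 5.30 ± 0.79 (adjusted p = 0.000316), or 5.99 without C57BL/6J replicate 3. Others of the 15 were Elovl3 and Elovl6, described with fatty acid synthesis, the immune genes Ifi202b (7.05), H2-Q10 (5.11), Il1f9 (5.06) and Klra4, the last of the 15, the enzymes Aspg (6.47) and Acpp (5.49), Rarres1 (5.29) and Cwc22 (5.41). Ifi202b lies in an interferon-inducible family of similar genes and is known to be silent in C57BL/6 mice. In other strains Ifi202b averaged 0.0495 CPM in CAST/EiJ and 23.1 CPM in NZO/HiLtJ.

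The 15 named genes with the lowest fold changes included 2 imprinted genes. Nnat, which encodes the small membrane protein neuronatin and is expressed from the paternal copy, had 7.55, 9.7 and 11.3 CPM in WSB/EiJ, against 1983, 1941 and 1312 CPM in C57BL/6J. Its log2 fold change was -7.52 ± 1.08 (adjusted p = 0.000246). Wfdc21, a secreted protein with a whey acidic protein domain, had 0.0168, 0.0332 and 0.0262 CPM in WSB/EiJ, against 9.64, 6.93 and 10.2 CPM in C57BL/6J. At both genes the groups did not overlap, and the log2 fold change of Wfdc21 was -8.36 (adjusted p = 1.67e-06).

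Other genes of the lowest 15 came from several functions. Cryab, a small chaperone, averaged 1.09 ± 0.386 CPM in WSB/EiJ and 70.4 ± 9.89 CPM in C57BL/6J (SD, n = 3 each; log2 fold change -6.01). Unc5a, a netrin receptor, averaged 0.456 ± 0.124 CPM in WSB/EiJ and 32.7 ± 9.27 CPM in C57BL/6J (-6.17). P4ha3, a subunit of the enzyme that hydroxylates collagen prolines, had 0, 0.0166 and 0.289 CPM in WSB/EiJ and 7.12, 13.8 and 3.21 CPM in C57BL/6J (-6.16). Its value was -9.64 without WSB/EiJ replicate 3 and -5.53 without C57BL/6J replicate 2. Akr1cl, of the aldo-keto reductase family, ranged from 10.5 to 77.9 CPM within C57BL/6J alone, with 0.184 to 0.514 CPM in WSB/EiJ (-7.31). Cyp4f16 (-7.05), H2-Eb1 (-7.04), Methig1 (-6.57), Sfrp5 (-6.44), Prr32 (-6.22), Pttg1 (-5.68), Fgf13 (-5.59) and Mest (-5.56) were also among them. Methig1 had -7.36 without WSB/EiJ replicate 1 and Fgf13 -6.24 without WSB/EiJ replicate 2.

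Genes of fatty acid synthesis had the highest median fold change of the 18 plotted gene lists. Of the 18 measured members 17 were higher in WSB/EiJ, none was lower, and Scd3 did not pass (-0.47, adjusted p = 0.126). Their median log2 fold change was 3.14, against -0.03 over all genes tested. In all 17 the lowest WSB/EiJ library lay above the highest C57BL/6J library, while 54.6% of all genes tested had no overlap in either direction. In the fit of all 24 libraries 15 of the 18 were higher.

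Promoters are shown for 4 members whose 250 bases before the transcription start hold an inverted or direct CCAAT box, the letters bound by NF-Y, which works beside SREBP1 at lipogenic promoters. The sequences are those of the C57BL/6J reference (RefSeq, GRCm38.p6), and capitals mark CCAAT or its inverse ATTGG and the E-box CACGTG. Fasn (chr11:120824548-120824797, minus strand) and Thrsp (chr7:97417551-97417800, minus strand) hold CCAAT or its inverse, and Slc25a1 (chr16:17928220-17928469, minus strand) and Elovl5 (chr9:77917115-77917364, plus strand) also hold CACGTG.
Fasn: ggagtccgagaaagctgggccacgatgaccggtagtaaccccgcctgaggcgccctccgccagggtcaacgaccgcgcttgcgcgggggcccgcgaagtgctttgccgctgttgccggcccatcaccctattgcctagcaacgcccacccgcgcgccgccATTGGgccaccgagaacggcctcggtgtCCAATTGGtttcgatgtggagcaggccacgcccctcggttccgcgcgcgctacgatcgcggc
Thrsp: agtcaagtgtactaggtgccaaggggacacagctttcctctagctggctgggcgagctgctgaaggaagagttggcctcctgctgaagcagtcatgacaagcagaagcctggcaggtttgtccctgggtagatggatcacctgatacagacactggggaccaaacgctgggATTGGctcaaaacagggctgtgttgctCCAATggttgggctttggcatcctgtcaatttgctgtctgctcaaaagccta
Slc25a1: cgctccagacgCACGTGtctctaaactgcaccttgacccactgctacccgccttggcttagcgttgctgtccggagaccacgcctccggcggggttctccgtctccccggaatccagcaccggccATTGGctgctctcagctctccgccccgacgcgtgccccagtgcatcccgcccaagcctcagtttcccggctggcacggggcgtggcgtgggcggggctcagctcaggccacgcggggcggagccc
Elovl5: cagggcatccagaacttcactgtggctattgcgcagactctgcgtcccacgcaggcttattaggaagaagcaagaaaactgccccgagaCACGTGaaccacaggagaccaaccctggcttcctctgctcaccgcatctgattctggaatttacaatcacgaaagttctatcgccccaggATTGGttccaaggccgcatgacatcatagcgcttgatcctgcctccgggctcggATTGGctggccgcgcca
In Fasn the matches began 90, 62 and 59 bases before the start, and the last 2 overlap. In Thrsp they began 79 and 52 bases before the start. Of the 14 list members with a promoter in the table, 9 held CCAAT on either strand in 1 or more starts, against 37.5% of 27025 genes (33.8% of windows), and 3 held CACGTG, against 6.86% of genes (6.02% of windows). None of the 14 held CACCCCAC, a core of sterol elements, which 2.98% of genes (2.58% of windows) held. These matches describe letters in a window of the reference strain and not a site in WSB/EiJ.

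Along the pathway, Slc25a1, which exports citrate from the mitochondrion, had 3180, 2205 and 1638 CPM in WSB/EiJ, against 188, 248 and 295 CPM in C57BL/6J (log2 fold change 3.27 ± 0.33, adjusted p = 2.63e-05). Acly, ATP citrate lyase, had 27875, 16748 and 16125 CPM in WSB/EiJ and 562, 1024 and 2764 CPM in C57BL/6J (3.80 ± 0.65, adjusted p = 0.00075). The C57BL/6J mice spread widely at Acly relative to their mean, and the highest of them stayed below the lowest WSB/EiJ mouse. Without C57BL/6J replicate 3 its log2 fold change was 4.67. Me1, malic enzyme, which supplies NADPH, averaged 6028 ± 1769 CPM in WSB/EiJ and 445 ± 217 CPM in C57BL/6J (3.76).

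The 2 acetyl-CoA carboxylases were both higher. Acaca, the cytosolic form that makes malonyl-CoA for synthesis, had 11366, 8863 and 8091 CPM in WSB/EiJ and 451, 1239 and 1410 CPM in C57BL/6J (3.19 ± 0.48, adjusted p = 0.000321). Acacb, the form at the mitochondrial surface whose malonyl-CoA blocks carnitine palmitoyltransferase, had 1299, 1551 and 1319 CPM in WSB/EiJ and 51.9, 93.1 and 45.2 CPM in C57BL/6J (4.45 ± 0.44, adjusted p = 2.22e-05). Fasn, fatty acid synthase, had 23286, 19346 and 17774 CPM in WSB/EiJ, against 759, 1683 and 3008 CPM in C57BL/6J (3.47 ± 0.49, adjusted p = 0.000238). At all 3 genes WSB/EiJ was above C57BL/6J without overlap.

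The elongase genes Elovl3 and Elovl6 had the highest fold changes of the list. Elovl3, which elongates saturated and monounsaturated chains and is known from brown fat, had 52, 43.3 and 41.6 CPM in WSB/EiJ, against 0.0257, 0.314 and 0.107 CPM in C57BL/6J (8.23 ± 0.48, adjusted p = 5.55e-07, or 9.40 without C57BL/6J replicate 2). Elovl6, which extends palmitate to stearate, had 1629, 2179 and 1549 CPM in WSB/EiJ and 14.7, 39.4 and 55.3 CPM in C57BL/6J (5.61 ± 0.69, adjusted p = 8.82e-05). Elovl5, which extends polyunsaturated chains, averaged 173 ± 27.3 CPM in WSB/EiJ and 46 ± 3.42 CPM in C57BL/6J (1.91). Among desaturases, Scd1 averaged 19355 ± 3799 CPM in WSB/EiJ and 5023 ± 931 CPM in C57BL/6J (1.95), and Fads1, the delta-5 desaturase, 115 ± 7.49 CPM in WSB/EiJ and 32.9 ± 2.41 CPM in C57BL/6J. The transcription factors of the pathway were higher by less than most of its enzymes: Srebf1 had a log2 fold change of 2.04 ± 0.25 (adjusted p = 8.04e-05) and Mlxipl, the carbohydrate-response factor ChREBP, one of 1.86 ± 0.28 (adjusted p = 0.000336). In the fit of all 24 libraries Scd1 (adjusted p = 0.163) and Mlxipl (adjusted p = 0.141) did not pass.

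**Figure D2:**
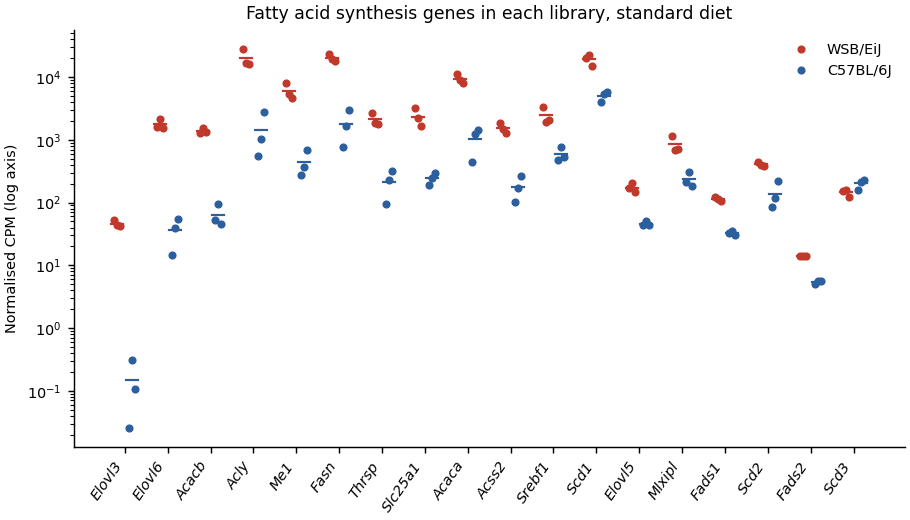
The 18 measured fatty acid synthesis genes are ordered by log2 fold change, with normalised CPM on a log y axis, 1 dot per library (WSB/EiJ red and left, C57BL/6J blue and right) and a bar at the mean. The red dots lie above the blue dots at 17 genes and Scd3 is the exception, with 122 to 160 CPM in WSB/EiJ and 160 to 232 CPM in C57BL/6J.

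The other strains did not lie evenly between the 2. Acacb averaged 1011 CPM in CAST/EiJ, close to WSB/EiJ, and 131 CPM in NZO/HiLtJ. Acly averaged 1216 CPM in CAST/EiJ and 2509 CPM in NZO/HiLtJ, both near C57BL/6J, and Elovl6 averaged 173 CPM in CAST/EiJ and 73.4 CPM in NZO/HiLtJ. Over all 8510 called genes, the 3 WSB/EiJ libraries were the outermost of the 12 standard-diet libraries at 35.6%, and the 3 C57BL/6J libraries at 22.5%. Over all genes tested the shares were 18% and 11.3%. Called genes were picked by the contrast of these same 2 groups, and an outermost group cannot overlap the other. The higher shares among called genes are therefore built in by that choice at least in part.

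Triglyceride assembly followed the same direction. Of 12 members 9 were higher, 1 was lower and 2 did not pass, with a median log2 fold change of 1.18. Gpd1, which makes glycerol 3-phosphate, had 3585, 2631 and 2147 CPM in WSB/EiJ and 189, 286 and 708 CPM in C57BL/6J (2.82 ± 0.43, adjusted p = 0.000373, or 3.55 without C57BL/6J replicate 3). Agpat2, which adds the second fatty acid and whose loss causes lipodystrophy, had 2405, 1665 and 1686 CPM in WSB/EiJ and 221, 361 and 287 CPM in C57BL/6J (2.73 ± 0.20, adjusted p = 2.86e-06). Both enzymes were higher in every WSB/EiJ library. Dgat1, an enzyme of the last step, had a log2 fold change of 1.36 (adjusted p = 2.08e-05), but an adjusted p of 0.109 in the fit of all 24 libraries, where 3 of the 12 members were higher.

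Cholesterol synthesis genes moved less evenly, with 10 of 21 higher, none lower and a median of 0.83. Nsdhl, a late enzyme of the pathway, averaged 57.3 ± 7.19 CPM in WSB/EiJ and 16.5 ± 5.19 CPM in C57BL/6J. Insig1, which holds SREBPs in the endoplasmic reticulum and is itself their target, averaged 210 ± 68 CPM in WSB/EiJ and 47.9 ± 8.58 CPM in C57BL/6J (2.13). Fdft1, squalene synthase, averaged 51.9 ± 6.25 CPM in WSB/EiJ and 25 ± 1.49 CPM in C57BL/6J (1.05). The other 11 did not pass.

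Genes of fatty acid uptake split. Of 15 members 6 were higher (40%, against 20.9% of all genes) and 4 lower (26.7%, against 23.8%). With library totals as the scaling 4 were higher and 7 lower (2283 and 7468 over all genes). In the fit of all 24 libraries 2 were higher and 1 lower (2024 and 2391 over all genes). Slc27a1, a fatty acid transporter, averaged 698 ± 79.8 CPM in WSB/EiJ and 146 ± 25.6 CPM in C57BL/6J (2.25, adjusted p = 2.68e-06), and Fabp5, a fatty acid carrier, 777 ± 120 CPM in WSB/EiJ and 114 ± 50.1 CPM in C57BL/6J (2.77, adjusted p = 3.82e-05). Cav1, the main caveolar coat protein, averaged 1330 ± 181 CPM in WSB/EiJ and 3044 ± 265 CPM in C57BL/6J (-1.19, adjusted p = 4.95e-05). In the fit of all 24 libraries Slc27a1 (adjusted p = 0.0512) and Cav1 (adjusted p = 0.0671) did not pass. Lpl, lipoprotein lipase, and Cd36, a fatty acid receptor, did not pass: their log2 fold changes were -0.28 ± 0.20 and -0.07 ± 0.12.

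Lipolysis and droplet genes gave 6 higher and 2 lower of 18, with a median of 0.39 (1 higher and 0 lower in the fit of all 24 libraries). Cidea, a droplet protein known from brown fat, had 56.6, 69.6 and 54.7 CPM in WSB/EiJ, against 2.3, 3.04 and 1.29 CPM in C57BL/6J (4.77 ± 0.35, adjusted p = 3.14e-06). Pnpla2, adipose triglyceride lipase, averaged 6670 ± 712 CPM in WSB/EiJ and 4203 ± 784 CPM in C57BL/6J, and its activator Abhd5 370 ± 27.4 CPM in WSB/EiJ and 146 ± 6.73 CPM in C57BL/6J. The log2 fold changes of 0.67 and 1.34 passed, and neither did in the fit of all 24 libraries (adjusted p = 0.555 and 0.0619). Plin4, a droplet coat protein, was lower (-0.87, adjusted p = 0.00775, and 0.403 in the fit of all 24).

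All 22 measured genes of oxidative phosphorylation were higher in WSB/EiJ, against 20.9% of all genes. Their log2 fold changes lay close together, from 0.62 in Sdhc to 1.46 in Cycs, with a median of 0.99, and 17 of the 22 passed in the fit of all 24 libraries. Ndufs1, a core subunit of complex I, had 383, 377 and 330 CPM in WSB/EiJ and 135, 137 and 146 CPM in C57BL/6J (1.38 ± 0.11, adjusted p = 4.9e-06). Sdhb, the iron-sulfur subunit of complex II, averaged 267 ± 19 CPM in WSB/EiJ and 123 ± 6.92 CPM in C57BL/6J (1.11). Uqcrc2 of complex III (1.37) and Cox5a of complex IV (1.38) showed the same pattern. There was no overlap between the strains in any of the 22, while 54.6% of all genes tested had none.

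Fatty acid oxidation gave 16 higher and 1 lower of 18, with a median of 1.19. Hadha and Hadhb, the 2 subunits of the mitochondrial trifunctional protein, had log2 fold changes of 1.76 ± 0.12 and 1.57 ± 0.09. Hadhb had 1368, 1489 and 1354 CPM in WSB/EiJ and 474, 471 and 469 CPM in C57BL/6J. The isoforms of carnitine palmitoyltransferase 1 moved apart. Cpt1b, the muscle and brown fat form, had 11.8, 10.3 and 16.4 CPM in WSB/EiJ and 1.36, 2.57 and 1.65 CPM in C57BL/6J (2.79 ± 0.25, adjusted p = 1.1e-05). Cpt1a, the form of liver and most other tissues, had 18.6, 22.1 and 20.6 CPM in WSB/EiJ and 42.6, 41.1 and 44.9 CPM in C57BL/6J (-1.07 ± 0.14, adjusted p = 0.000113). In the fit of all 24 libraries 6 of the 18 oxidation genes were higher and Cpt1a was lower.

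Breakdown of branched-chain amino acids, which feeds acetyl-CoA into lipid synthesis in fat cells, gave 16 higher and none lower of 20, with a median of 0.82. Bcat2, the mitochondrial transaminase of the first step, had 1022, 975 and 787 CPM in WSB/EiJ and 305, 288 and 248 CPM in C57BL/6J (1.73 ± 0.24, adjusted p = 0.000189). Bckdhb, a subunit of the dehydrogenase complex, averaged 149 ± 14.4 CPM in WSB/EiJ and 53.6 ± 5.99 CPM in C57BL/6J (1.48, adjusted p = 3.23e-06, and 0.0825 in the fit of all 24, where 6 of the 20 were higher).

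Brown and beige adipocyte genes were higher at 12 of 17, lower at 1 (Ckb, -0.75, adjusted p = 0.433 in the fit of all 24), with a median of 1.99. Ucp1, which uncouples respiration to make heat, had 25.3, 25.8 and 34.9 CPM in WSB/EiJ, against 0.154, 2.27 and 0.725 CPM in C57BL/6J (4.76 ± 0.69, adjusted p = 0.000254, or 6.03 without C57BL/6J replicate 2). CAST/EiJ lay above both with a mean of 89 CPM. Ppargc1a, the coactivator of mitochondrial genes, had 22.2, 19 and 23.5 CPM in WSB/EiJ and 3.01, 3.05 and 1.89 CPM in C57BL/6J (3.02 ± 0.23, adjusted p = 4.61e-06), and Cox8b averaged 22.9 ± 3.31 CPM in WSB/EiJ and 3.18 ± 1.19 CPM in C57BL/6J (2.85). Prdm16, a factor that sets brown identity, did not pass, with 23.7, 25.2 and 19.4 CPM in WSB/EiJ and 27, 21.4 and 23.9 CPM in C57BL/6J. In bulk tissue, fewer cells of a type and less RNA per cell cannot be told apart, here and in the groups that follow.

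Insulin and glucose genes gave 12 higher and 2 lower of 18, with a median of 0.68 (6 higher and 2 lower in the fit of all 24 libraries). Slc2a4, the insulin-regulated glucose transporter GLUT4, had 328, 220 and 225 CPM in WSB/EiJ and 100, 107 and 132 CPM in C57BL/6J (1.19 ± 0.17, adjusted p = 0.000274, and 0.0731 in the fit of all 24). Pygl, a glycogen phosphorylase, averaged 958 ± 206 CPM in WSB/EiJ and 202 ± 42.9 CPM in C57BL/6J (2.24), and Ldhb, a lactate dehydrogenase subunit, 234 ± 28.2 CPM in WSB/EiJ and 56.9 ± 10.5 CPM in C57BL/6J (2.04). The lower pair was Irs2, an insulin receptor substrate (-1.35, adjusted p = 0.000879), and Foxo1, a transcription factor that insulin signalling keeps out of the nucleus (-0.92, adjusted p = 0.000155).

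**Figure D3:**
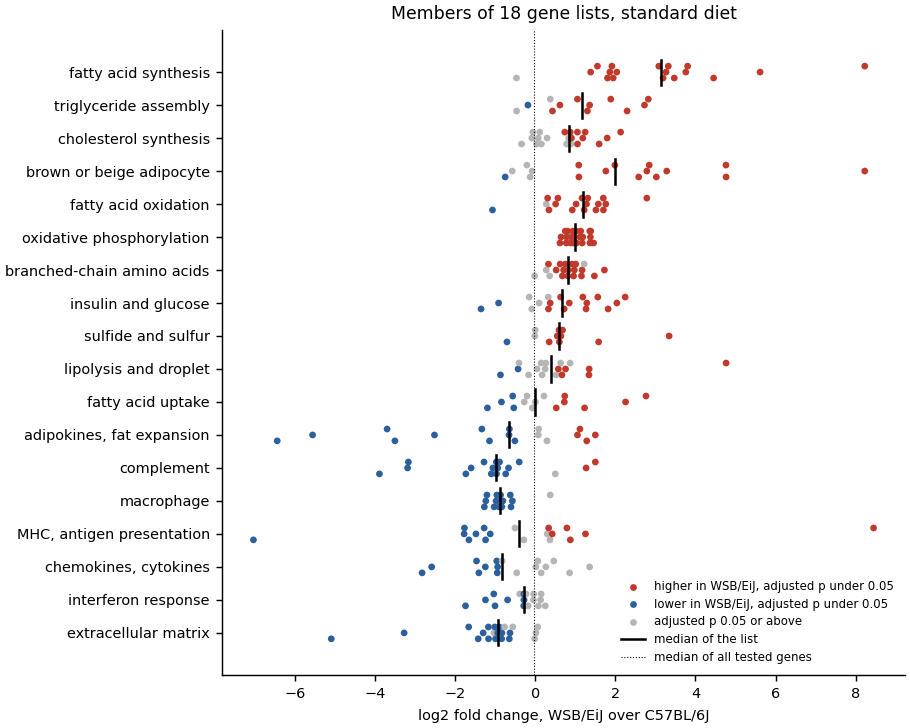
Each dot is 1 member of a gene list, placed by its log2 fold change of WSB/EiJ over C57BL/6J, red where higher, blue where lower and grey where the adjusted p was 0.05 or above. Black bars mark list medians, with the highest at 3.14 for fatty acid synthesis and the lowest at -0.97 for complement, and the dotted line marks the median of all genes at -0.03.

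In the sulfide and sulfur list, 8 of 11 members were higher and 1 lower. Tst, the mitochondrial thiosulfate sulfurtransferase rhodanese, had 84.1, 120 and 81.8 CPM in WSB/EiJ, against 8.94, 13.7 and 5.56 CPM in C57BL/6J (3.34 ± 0.40, adjusted p = 7.84e-05). The groups did not overlap. Cth, which makes cysteine from cystathionine, averaged 18 ± 2.53 CPM in WSB/EiJ and 6.02 ± 1.08 CPM in C57BL/6J (1.58, adjusted p = 3.24e-05). Mpst, the cytosolic and mitochondrial relative of Tst, had a log2 fold change of 0.68, Cdo1, which oxidises cysteine, 0.59, and Ethe1, the persulfide dioxygenase, 0.64. Suox (0.55), Csad (0.60) and Tstd2 (0.35) were also higher and Tstd3 was lower (-0.71). In the fit of all 24 libraries Cdo1 (adjusted p = 0.529), Ethe1 (0.0944), Suox (0.174) and Csad (0.267) did not pass. Sqor, which starts sulfide oxidation, and Cbs, which makes cystathionine, did not pass: Sqor averaged 169 ± 4.39 CPM in WSB/EiJ and 170 ± 16.9 CPM in C57BL/6J, and Cbs 22.5 ± 5.83 CPM in WSB/EiJ and 22.8 ± 3.84 CPM in C57BL/6J. With library totals as the scaling, 4 of the 11 were higher and 2 lower: Suox, Csad, Ethe1 and Tstd2 did not pass, and Sqor did (-0.25).

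Secreted products and markers of fat expansion were mostly lower, with 10 of 17 lower and 4 higher (median -0.65), and in the fit of all 24 libraries 8 lower and 1 higher. Lep, leptin, had 90.1, 39.3 and 54.8 CPM in WSB/EiJ, against 668, 503 and 921 CPM in C57BL/6J (-3.51 ± 0.52, adjusted p = 0.000327). Mest, an imprinted gene whose level in fat tracks pad growth in C57BL/6J, had 7.97, 7.28 and 6.17 CPM in WSB/EiJ and 306, 101 and 603 CPM in C57BL/6J (-5.56 ± 0.94, adjusted p = 0.000691). Sfrp5, a secreted Wnt inhibitor, had 0.352, 0.431 and 0.276 CPM in WSB/EiJ and 30.8, 6.25 and 54.6 CPM in C57BL/6J (-6.44 ± 1.16, adjusted p = 0.00107). At all 3 genes C57BL/6J replicate 3 was the highest library and replicate 2 the lowest of its group, and all 3 WSB/EiJ libraries lay below it. Without C57BL/6J replicate 3 Mest had -4.83 and Sfrp5 -5.72.

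Npr3, the clearance receptor of natriuretic peptides, averaged 48.2 ± 17.1 CPM in WSB/EiJ and 626 ± 239 CPM in C57BL/6J (-3.70, adjusted p = 0.000102). Peg3, another imprinted gene, averaged 23.3 ± 12.2 CPM in WSB/EiJ and 133 ± 30.8 CPM in C57BL/6J (-2.52). Higher were Cfd, adipsin, Retn, resistin (1.29), Nampt (1.05) and Nrg4 (1.11). Of these 4, Cfd, Retn and Nrg4 did not pass in the fit of all 24 libraries (adjusted p = 0.338, 0.36 and 0.314). Adipoq, adiponectin, had 2334, 2650 and 1800 CPM in WSB/EiJ and 2182, 1947 and 2261 CPM in C57BL/6J, and did not pass (0.09 ± 0.13).

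Among factors of adipocyte formation and progenitors 6 of 21 were lower (28.6%, against 23.8% of all genes) and 2 higher (9.52%, against 20.9%). The fit of all 24 libraries gave 0 higher and 4 lower, and library totals gave 1 higher and 10 lower. Klf14, an imprinted zinc finger factor linked to fat cell size in human genetics, had 0.0168, 0 and 0.0131 CPM in WSB/EiJ, against 4.49, 2.26 and 7.52 CPM in C57BL/6J. That is 2 counts against 1089, a ratio of 461 with a 95% counting interval of 127 to 3808 (adjusted p = 0.000106). Tle3, a corepressor in adipocytes, averaged 123 ± 10.5 CPM in WSB/EiJ and 474 ± 70 CPM in C57BL/6J (-1.94, adjusted p = 1.41e-06). Cd34 (-0.92) and Ly6a (-0.77), surface markers of progenitors, were lower, while Pdgfra, another such marker, did not pass (0.14). In all 13 of the 21 did not pass, among them Pparg, the master factor of adipocytes (0.27 ± 0.18).

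Klf14 and Mest stand near each other in RefSeq order, with Copg2 between them. They belong to a run of 7 tested neighbours, beginning at Tmem209 and ending at Klf14, that were all lower in WSB/EiJ. Tmem209 differed least (-0.37) and Klf14 most. Copg2, a coatomer subunit, averaged 67.4 ± 7.13 CPM in WSB/EiJ and 107 ± 27.1 CPM in C57BL/6J (-0.67), and Cep41, a centrosome protein, 4.18 ± 0.419 CPM in WSB/EiJ and 10.5 ± 2.21 CPM in C57BL/6J (-1.32). Some other runs of at least 7 neighbours lay in gene families, where similar copies can share reads. Such were 11 lower genes of the Ifi200 cluster from Ifi206 to Ifi203, 7 lower Cd300 receptors and 9 lower Mup genes. Others held mostly unrelated genes, such as 9 lower genes from Zbtb4 to Kctd11 and 7 lower genes from Ppm1m to Rpl29. The Mup genes varied widely within C57BL/6J. Mup9 averaged 74 ± 21.5 CPM in WSB/EiJ and 255 ± 193 CPM in C57BL/6J. Its edgeR adjusted p was 0.0441, and 0.524 on the high-fat diet.

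Macrophage genes were lower at 14 of 15, with Spp1 as the exception, and the median was -0.88. In the whole marker list the summed level was 487, 593 and 611 CPM in WSB/EiJ, against 1186, 1073 and 1168 CPM in C57BL/6J, and no marker was at 0 in all 6 libraries. Cd68, a lysosomal protein of macrophages, had 22.3, 20.2 and 23.3 CPM in WSB/EiJ and 38, 37.8 and 39.5 CPM in C57BL/6J (-0.81 ± 0.12, adjusted p = 0.000242). Adgre1, the F4/80 antigen, had 27.1, 33.1 and 36.2 CPM in WSB/EiJ and 61.8, 58.8 and 69.6 CPM in C57BL/6J (-0.98 ± 0.17, adjusted p = 0.000966). Itgam, an integrin of myeloid cells, averaged 48.9 ± 9.73 CPM in WSB/EiJ and 118 ± 3.56 CPM in C57BL/6J (-1.27). The summed marker level was 730, 1019 and 864 CPM in CAST/EiJ and 1577, 1072 and 1399 CPM in NZO/HiLtJ. Single genes could depart from that order: Cd68 averaged 13.4 CPM in CAST/EiJ, below WSB/EiJ, and 73.3 CPM in NZO/HiLtJ. With all 24 libraries fitted, 4 of the 15 were lower.

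Complement genes were lower at 15 of 18 and higher at 2, with a median of -0.97. The 3 genes of C1q, which macrophages make, were lower together: C1qc had 19.9, 22.1 and 20.9 CPM in WSB/EiJ and 66.8, 63.6 and 60.6 CPM in C57BL/6J (-1.60 ± 0.10, adjusted p = 1.26e-06), C1qb had a log2 fold change of -1.10 and C1qa one of -0.94. C4b had 36.4, 38.3 and 35.7 CPM in WSB/EiJ and 638, 503 and 497 CPM in C57BL/6J (-3.89 ± 0.15, adjusted p = 2.55e-08). C4a, a near-identical copy with which C4b can exchange reads, had 43, 44.5 and 42.8 CPM in WSB/EiJ and 451, 359 and 362 CPM in C57BL/6J (-3.17 ± 0.14). Both assigned levels were lower, but with shared reads they do not show separately that each copy was lower. C3, the central component, went the other way, with 2823, 3656 and 2858 CPM in WSB/EiJ and 1228, 1438 and 1209 CPM in C57BL/6J (1.27, adjusted p = 0.000563, and 0.0516 in the fit of all 24). The other higher member was Cfd.

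Antigen presentation genes went both ways, with 8 of 18 lower and 6 higher (4 higher and 8 lower in the fit of all 24 libraries). The class II genes H2-Ab1 (-1.77), H2-Aa (-1.48) and Cd74, the invariant chain (-1.66), were lower, and H2-Eb1 had 1.81, 1.28 and 1.1 CPM in WSB/EiJ, against 202, 137 and 208 CPM in C57BL/6J (-7.04 ± 0.32, adjusted p = 9.07e-08). Its partner chain H2-Ea, listed as H2-Ea-ps and known to be silent in the C57BL/6 haplotype, had 52.9, 56.4 and 45.9 CPM in WSB/EiJ and 0.167, 0.213 and 0.0537 CPM in C57BL/6J (8.45 ± 0.36, adjusted p = 4.78e-08). Of class I genes, H2-D1 was lower (-1.28), H2-Q4 (1.25), H2-T23 (0.88) and H2-Q7 (0.79) were higher, and H2-K1 did not pass (0.30). These genes are highly variable between strains and similar to each other. Whether the alignment used strain-specific sequences is not given in the sources used here, and the part of mapping in these values was not tested.

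Of 17 cytokine genes 8 were lower and none was higher, and of 19 interferon response genes 8 were lower and none was higher. With all 24 libraries fitted, 5 of the 17 and 1 of the 19 were lower. Ccl8, a monocyte chemokine, had 0.587, 0.73 and 0.997 CPM in WSB/EiJ and 5.37, 6.38 and 4.81 CPM in C57BL/6J (-2.83 ± 0.34, adjusted p = 8.62e-05). Tgfb1 averaged 7.37 ± 0.655 CPM in WSB/EiJ and 14.4 ± 1.82 CPM in C57BL/6J (-0.96). Tnf and Ccl2 did not pass, with 0.216 to 0.621 CPM in WSB/EiJ and 0.339 to 0.631 CPM in C57BL/6J for Tnf. Rsad2, an antiviral enzyme, averaged 5.37 ± 1.5 CPM in WSB/EiJ and 18 ± 5.99 CPM in C57BL/6J (-1.74, adjusted p = 0.000909).

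Extracellular matrix genes were lower at 15 of 21 and higher at none, with a median of -0.94. The collagen VI chains, which surround adipocytes, were lower together: Col6a2 had 161, 197 and 265 CPM in WSB/EiJ and 643, 605 and 728 CPM in C57BL/6J (-1.66 ± 0.26, adjusted p = 0.00048), Col6a1 had a log2 fold change of -1.43 and Col6a3 one of -1.30 (adjusted p = 0.0514 in the fit of all 24). Sparc, a collagen-binding glycoprotein, averaged 1404 ± 208 CPM in WSB/EiJ and 3160 ± 455 CPM in C57BL/6J (-1.17), and Lox, which crosslinks collagen, 16.5 ± 0.814 CPM in WSB/EiJ and 33.2 ± 3.01 CPM in C57BL/6J (-1.01, adjusted p = 5.53e-05, and 0.114 in the fit of all 24). Thbs1, thrombospondin 1, which activates TGF-beta, had 6.41, 9.36 and 11 CPM in WSB/EiJ and 436, 283 and 199 CPM in C57BL/6J (-5.09 ± 0.47, adjusted p = 1.38e-05). Of the fibrillar collagens Col5a1 was lower (-1.17), while Col3a1 and Col1a1 did not pass: Col3a1 had a log2 fold change of 0.06 ± 0.30 and Col1a1 one of -0.77 ± 0.30 (adjusted p = 0.0562).

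**Figure D4:**
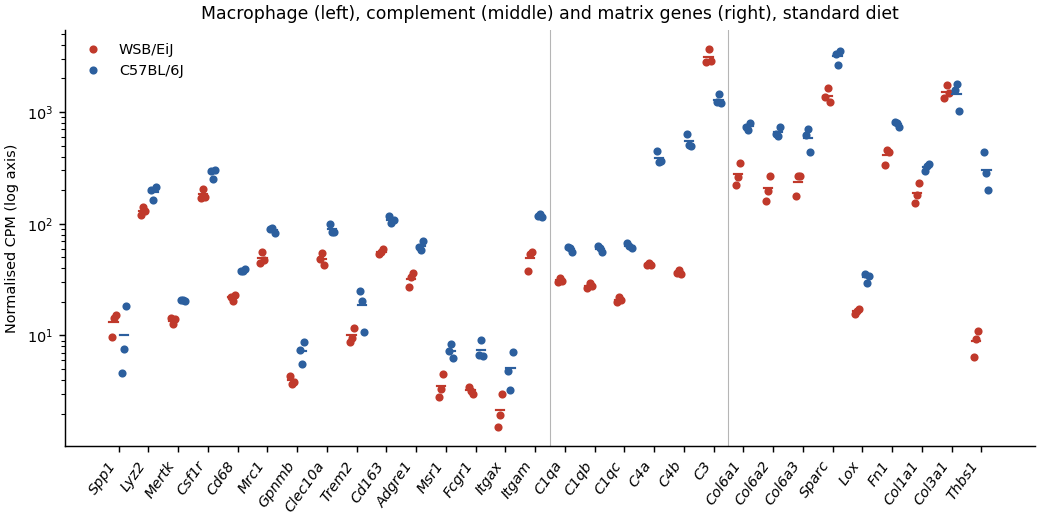
Normalised CPM per library on a log y axis, with 15 macrophage genes at left, 6 complement genes in the middle and 9 matrix genes at right. The WSB/EiJ libraries (red) lie below the C57BL/6J libraries (blue) at most genes, by the widest margin at C4b and Thbs1, and above them at C3.

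Endothelial markers summed to 588, 685 and 687 CPM in WSB/EiJ and 934, 863 and 928 CPM in C57BL/6J, scaled to the library total. Of the 11 markers 4 were lower (36.4%, against 23.8% of all genes), and 1 in the fit of all 24 libraries. Their median log2 fold change was -0.14, within the shift between scalings. Lyve1, of lymphatic endothelium and some macrophages, had 3.05, 7.33 and 13.6 CPM in WSB/EiJ and 28.6, 47.6 and 26.9 CPM in C57BL/6J (-2.10 ± 0.41, adjusted p = 0.00178, or -2.73 without WSB/EiJ replicate 3). Msln, mesothelin, averaged 12.2 ± 1.29 CPM in WSB/EiJ and 29.2 ± 3.99 CPM in C57BL/6J (-1.26), and 4 of the 5 mesothelial markers were lower. With all 24 libraries fitted by edgeR none of the 5 passed, Msln included (adjusted p = 0.138). The part of these cells in the lower matrix and complement levels was not tested.

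Of 14 genes of hormone signalling 6 were higher, none was lower, with library totals 3 were higher and 1 lower, and in the fit of all 24 libraries 2 were higher. Hsd11b1, which regenerates active glucocorticoid inside cells, had 925, 1010 and 705 CPM in WSB/EiJ, against 37, 36.1 and 52.7 CPM in C57BL/6J (4.39 ± 0.26, adjusted p = 6.08e-07). Prlr, the prolactin receptor, had 109, 129 and 122 CPM in WSB/EiJ and 24.4, 26.5 and 25.3 CPM in C57BL/6J (2.24 ± 0.19, adjusted p = 8.52e-06). Both were well separated, while the glucocorticoid receptor Nr3c1 did not pass (0.09 ± 0.10).

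Retinoid genes gave 4 higher and 4 lower of 14, or 28.6% each, against 20.9% and 23.8% of all genes. With library totals 3 were higher and 7 lower, and in the fit of all 24 libraries 1 was higher and 1 lower. Aldh1a1, which makes retinoic acid, had 15.1, 14.2 and 13.4 CPM in WSB/EiJ and 79.7, 66.3 and 72.7 CPM in C57BL/6J (-2.36 ± 0.11, adjusted p = 1.24e-07). Rarres1, a gene induced by retinoids, averaged 20.8 ± 5.8 CPM in WSB/EiJ and 0.531 ± 0.201 CPM in C57BL/6J. In the glutathione and antioxidant list 10 of 25 were higher (40%, against 20.9% of all genes) and 6 lower (24%, against 23.8%). With library totals 6 were higher and 11 lower, and in the fit of all 24 libraries 2 were higher and 1 lower. Gsta4, which removes lipid aldehydes, averaged 42.7 ± 5.82 CPM in WSB/EiJ and 13 ± 0.835 CPM in C57BL/6J (1.71, adjusted p = 8.98e-07), and Gpx1, a glutathione peroxidase, 95.9 ± 13.7 CPM in WSB/EiJ and 205 ± 36.1 CPM in C57BL/6J (-1.10, adjusted p = 0.000103).

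Of 16 immediate early genes 6 were lower and none was higher (3 lower in the fit of all 24 libraries), led by Jun with 15, 13.4 and 18.5 CPM in WSB/EiJ and 55.8, 58.6 and 34.8 CPM in C57BL/6J (-1.67 ± 0.18, adjusted p = 3.78e-05). Of 12 heat shock genes 5 were lower, such as Hspa1b (-1.31), and 2 were higher (1 higher and 2 lower in the fit of all 24 libraries), the mitochondrial chaperonin pair Hspd1 (0.67) and Hspe1 (0.95), of which Hspd1 did not pass in the fit of all 24 (adjusted p = 0.144). Of 16 endoplasmic reticulum and amino acid stress genes 5 were lower (31.2%, against 23.8% of all genes) and 3 higher (18.8%, against 20.9%). The fit of all 24 libraries gave 3 higher and 1 lower, and library totals 1 higher and 9 lower. Asns, asparagine synthetase, averaged 20.4 ± 2.78 CPM in WSB/EiJ and 77.9 ± 13.8 CPM in C57BL/6J (-1.93). Of 18 clock genes Per1 (-1.20) and Per2 (-1.70) were lower and 3 were higher, that is 11.1% and 16.7%, under the shares of all genes tested (23.8% and 20.9%), and Per1 did not pass in the fit of all 24 (adjusted p = 0.0565). With library totals 2 clock genes were higher and 6 lower. The labels do not give the hour of collection.

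Of 12 proliferation genes 2 were lower (16.7%, against 23.8% of all genes) and none was higher. Positional genes of fat depots gave 1 higher and 4 lower of 12 (0 higher and 1 lower in the fit of all 24 libraries), with En1 at 0.0168, 0.0332 and 0.0262 CPM in WSB/EiJ and 0.206, 0.151 and 0.228 CPM in C57BL/6J (-2.85 ± 0.63, adjusted p = 0.00365). At these levels En1 rests on few counts.

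Both genes chosen for known structural differences between strains were higher in WSB/EiJ. Cwc22, a splicing factor gene in a segment that is amplified in WSB/EiJ, had 2436, 2726 and 2511 CPM in WSB/EiJ, against 64.8, 57.1 and 58.7 CPM in C57BL/6J (5.41 ± 0.09, adjusted p = 8.28e-12), and averaged 64.2 CPM in CAST/EiJ and 56.4 CPM in NZO/HiLtJ. Nnt, a mitochondrial proton-pumping transhydrogenase, of which C57BL/6J is known to carry an exon deletion, had 107, 129 and 108 CPM in WSB/EiJ and 53.1, 61.5 and 55.3 CPM in C57BL/6J (1.02 ± 0.14, adjusted p = 0.000186). Counts over the whole Nnt gene include exons outside that deletion.

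The high-fat mice gave the same contrast in 6 other libraries. There 3589 of 20035 genes passed (17.9%), 1766 higher in WSB/EiJ (8.81%) and 1823 lower (9.1%), while the standard-diet contrast from the same fit of all 24 libraries gave 4415 (22%). Of the 8509 called standard-diet genes that could be compared, 6107 had the same sign on the high-fat diet (71.8%), 1985 were called in that direction (23.3%) and 162 in the opposite one. Of the genes not called on the standard diet 54.9% had the same sign. The WSB/EiJ high-fat libraries held transcripts of other tissues: mammary epithelial genes summed to 248, 411 and 886 CPM, and nerve genes to 1525 CPM in replicate 2. In high-fat C57BL/6J mammary epithelial genes summed to 108, 32.5 and 62 CPM. Smooth muscle genes reached 1329 CPM in C57BL/6J replicate 1, against 1461 to 6260 CPM in WSB/EiJ. Erythroid genes reached 2404 CPM in C57BL/6J replicate 2, against 165 to 437 CPM in WSB/EiJ. The part of these in the smaller number of calls was not tested.

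On the high-fat diet 13 of 18 complement genes and 6 of 15 macrophage genes were lower in WSB/EiJ, and none of either list was higher. C4b was lower there (-3.46, adjusted p = 2.68e-09), as were Lep (-3.72, adjusted p = 0.0332), Klf14 (adjusted p = 0.000209) and Mest (-5.89, adjusted p = 0.00472). Of the 18 fatty acid synthesis genes 1 was higher and 1 lower there, with a median of 0.16, and Fasn had a log2 fold change of 0.17 (adjusted p = 0.916). None of the 22 oxidative phosphorylation genes passed by edgeR's test, with 21 of 22 positive and a median of 0.20. Adipocyte markers summed to 20474, 13865 and 18930 CPM in high-fat WSB/EiJ and to 22108, 27705 and 30191 CPM in high-fat C57BL/6J. Their median log2 fold change there was -0.51, with 1 of 10 positive. The part of adipocyte content in the high-fat values was not tested. Tests of the difference between diets were adjusted over all genes and called 203 of 20035 (1.01%): of the fatty acid synthesis list they called 2 of 18, and of the oxidative phosphorylation list 0 of 22 by edgeR's test. For Fasn the difference between diets had an adjusted p of 0.137. The count at an unadjusted p under 0.05 was 4222.

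**Figure D5:**
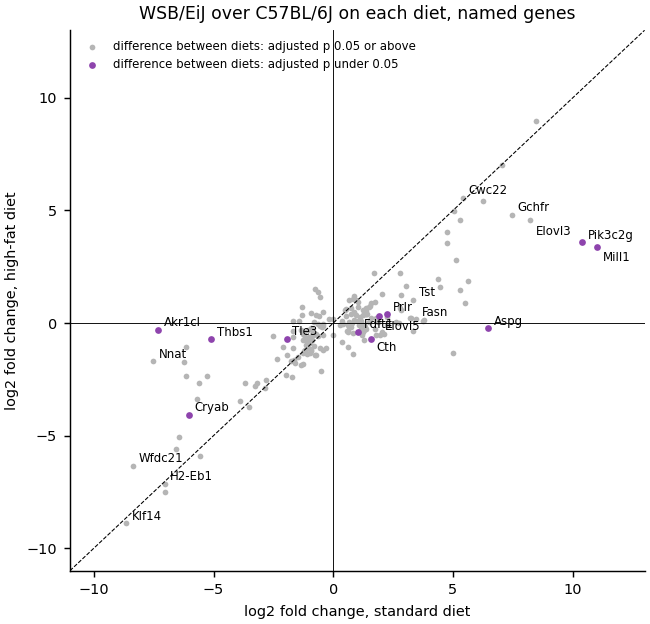
Each point is 1 named gene, with the log2 fold change of WSB/EiJ over C57BL/6J on the standard diet on the x axis (12 libraries) and on the high-fat diet on the y axis (24 libraries), the dashed line marking equal values. Cwc22, H2-Eb1 and Klf14 lie on the line, Aspg, Thbs1 and Akr1cl lie near 0 on the y axis, and purple marks the 11 genes whose difference between diets passed.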

How the data were processed

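Expected counts per gene were deposited by the authors for 24 poly(A) libraries. RSEM 1.2.1, Bowtie 0.12.8, CASAVA 1.8.0 and the builds NCBIM37 and mm9 are named, without role or order, per the submitters' processing notes. The deposited expected counts were whole numbers and were used as deposited. Replicates are separate mice, numbered here in accession order, and the numbers pair nothing. A second, upper-quartile normalised table was not used. Of 37991 Ensembl gene IDs 32919 matched a symbol, and IDs without one held 1.51% to 2.35% of counts.

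The test was edgeR 4.0.16's quasi-likelihood F test (R 4.3.3) on the 12 standard-diet libraries, 1 coefficient per strain, with 8 residual degrees of freedom, trimmed-mean scaling and filterByExpr, which left 19038 genes and removed 18953. P-values were adjusted by Benjamini-Hochberg over all genes tested. In the text, ± after a log2 fold change is an approximate SE, and ± after a mean is the SD over 3 mice. That SE was derived from the test, as the absolute log2 fold change divided by the square root of the F statistic. The high-fat contrast and the difference between diets came from 1 fit of all 24 libraries. Pairs of libraries of 1 group differed by more than counting noise (chi-square per degree of freedom 41.6 to 110), so none was counted as a duplicate. The biological coefficient of variation was 22.31%. Counting intervals cover counting error only. The script was tested on simulated data. In R, limma 3.58.1 and DESeq2 1.42.0 served for alternatives.

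The members and lists were chosen with earlier results of these data known. Named genes were the 15 highest and 15 lowest called log2 fold changes with no overlap, a mean of at least 5 CPM in the higher group and a settled symbol, up to 4 members per direction with the smallest adjusted p in each list, and all members of the sulfur and strain variant lists, 181 in all. A further 23 were named after their values were seen, to describe a list, as were some members given as not passing. Some list symbols are not analysed here, and Crabp1, Crabp2, Il6 and Tbx15 were too low to test. Promoters came from a RefSeq table of GRCm38.p6, and neighbours from RefSeq gene order on that assembly. Some named items are not reported here.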

Additional observations from a re-analysis of the deposited data

Results flagged for a closer look

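The strain difference itself differed between the diets at 11 of the 204 named genes. The test was the interaction term of the fit of all 24 libraries, adjusted over all genes (edgeR's quasi-likelihood test). Over all 20035 genes it called 203 (1.01%). Most named genes were picked by their standard-diet contrast, which is part of this difference. That choice can enlarge the difference, so their count is not comparable with the count over all genes. Each value is the log2 difference of WSB/EiJ minus C57BL/6J on the standard diet minus the same on the high-fat diet. For Mill1 it was 7.63 (adjusted p = 0.0371), with 0.294, 0.0809 and 0.913 CPM in high-fat WSB/EiJ and 0.0645, 0.0183 and 0.0313 CPM in high-fat C57BL/6J libraries. For Pik3c2g, also near 0 counts in standard-diet C57BL/6J, it was 6.80 (adjusted p = 0.0287), with 0.883, 0.445 and 1.51 CPM in high-fat WSB/EiJ and 0.142, 0.0183 and 0.0626 CPM in high-fat C57BL/6J libraries. The value for Aspg was 6.70 (adjusted p = 0.0319), with 6.37, 3.76 and 7.76 CPM in high-fat WSB/EiJ and 19.5, 0.384 and 1.2 CPM in high-fat C57BL/6J libraries. Akr1cl, which varied widely within standard-diet C57BL/6J, gave -7.01 (adjusted p = 0.0366), with 2.42, 4.48 and 0.609 CPM in high-fat WSB/EiJ and 0.786, 5.46 and 2.99 CPM in high-fat C57BL/6J libraries. Cryab, lower in WSB/EiJ on both diets, gave -1.95 (adjusted p = 0.0366), with 2.97, 4.51 and 5.41 CPM in high-fat WSB/EiJ and 61.9, 89.1 and 65.6 CPM in high-fat C57BL/6J libraries. The matrix gene Thbs1 gave -4.38 (adjusted p = 0.00318), with 42.9, 41.8 and 32.9 CPM in high-fat WSB/EiJ and 56.9, 97 and 40.7 CPM in high-fat C57BL/6J libraries. Among metabolic genes, Cth gave 2.27 (adjusted p = 0.0409), with 9.04, 4.09 and 5.16 CPM in high-fat WSB/EiJ and 10.5, 10.5 and 8.67 CPM in high-fat C57BL/6J libraries. Squalene synthase, Fdft1, gave 1.43 (adjusted p = 0.0129), with 22.1, 25.3 and 26.6 CPM in high-fat WSB/EiJ and 26.5, 26.3 and 43.7 CPM in high-fat C57BL/6J libraries. The elongase gene Elovl5 gave 1.59 (adjusted p = 0.0305), with 84.6, 72.5 and 71.5 CPM in high-fat WSB/EiJ and 58, 55 and 70.7 CPM in high-fat C57BL/6J libraries. The prolactin receptor gene Prlr gave 1.85 (adjusted p = 0.0314), with 87.3, 45.3 and 56.2 CPM in high-fat WSB/EiJ and 47.3, 30.4 and 66.4 CPM in high-fat C57BL/6J libraries. The corepressor gene Tle3 gave -1.26 (adjusted p = 0.0462), with 222, 210 and 188 CPM in high-fat WSB/EiJ and 267, 470 and 265 CPM in high-fat C57BL/6J libraries. The high-fat WSB/EiJ libraries held 33.1, 58.5 and 11.9 CPM of Epcam (scaled to the library total), and the high-fat C57BL/6J libraries 11.5, 0.0899 and 0.494 CPM. The part of other tissues in the values of these genes was not tested.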

How the results depend on the processing

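The 8510 calls became 4415 in the fit of all 24 libraries (2024 higher, 2391 lower), 2283 higher and 7468 lower with library totals, and 3071 with an absolute log2 fold change of at least 1 (1265 higher, 1806 lower). Leaving out 1 library at a time gave 7227 to 8789 calls, lowest without C57BL/6J replicate 1 and highest without CAST/EiJ replicate 1. Over 4690 alternatives for 204 named genes, 4519 kept direction and side of the threshold and 156 lost the call. Of the 202 called named genes 71 did not pass in the fit of all 24, and 12 failed in 1 or more fits that left out a library. Sqor passed with library totals (-0.25). Direction turned at 2 genes that did not pass. Cbs (-0.01, adjusted p = 0.98) had 0.0111 with DESeq2 size factors, 0.0106 with DESeq2 and -0.245 to 0.0993 with 1 library left out, 0.0560 to 0.0993 where it turned. Sqor had 0.00427 without NZO/HiLtJ, 0.0215 with DESeq2 size factors, 0.0215 with DESeq2, 0.00322 with limma-trend and -0.0810 to 0.0520 with 1 library left out, 0.00667 to 0.0520 where it turned. The cause was not tested. No paired analysis applied, because the groups are separate mice of different strains. Depth limits genes with few counts in 1 strain, such as Mill1, Pik3c2g and Klf14.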
